A study of Homo sapiens with 8 samples.

Results

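A small set of very wide ETS1 intervals stands at the far end of the ETS1 peak list of DU145 prostate cancer cells. They are the 387 peaks, of 9984 in the first of the 2 deposited ETS1 lists, that span 2500 bp or more, and they were chosen by that width alone. They make up 3.88% of the peaks and 10.5% of the base pairs of the list. The comparison set is the 3819 peaks of the same list that span 1000 to 1500 bp. The width that chose both sets is a description here and supports no result.

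The study mapped transcription factors by chromatin immunoprecipitation and sequencing (ChIP-seq) in 2 human epithelial cancer lines, with 1 sample per factor and line. In DU145, a line from prostate cancer, the factors were ETS1, GABPA, ELF1, ELK4 and JUND. The labels name no treatment or genotype for any group; the culture notes for DU145 mention puromycin for selected cells without saying which samples those were. In PANC1, a line from pancreatic cancer, the factor was ETS1, taken with a different lot of the same antibody. The 2 input samples were not analysed here. Each line is a single established culture. The second ETS1 list of DU145 carries the mark R2 and is deposited under the same sample as the first; the labels do not say whether it comes from a separate immunoprecipitation, and it was treated here as a second list of that sample. With 1 sample per factor and line, every test below describes these lists of peaks and not the spread between cultures. The lists give positions on the genome build hg19 and no height or read count per peak, so the depth is unknown.

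ETS1, GABPA, ELF1 and ELK4 are members of the ETS family of transcription factors, whose shared DNA-binding domain reads a GGAA core. GABPA and ELF1 are known for promoters of genes that most cells use, and ELK4 also binds beside serum response factor at genes that growth signals switch on quickly. JUND is an AP-1 factor, and AP-1 dimers read the site TGANTCA. ETS and AP-1 factors are known to act together at genes of the RAS/ERK pathway, such as PLAU, which encodes the urokinase protease.

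Gene names below place an interval on the hg19 map from general knowledge, because no gene table of that build was used. They are background: no count or test of occupancy rests on them. The sequences that follow are promoters of 6 such genes, from RefSeq on the build GRCh38.p14, each the 250 bases before the annotated start, 5′ to 3′ on the strand of the gene. Their positions are not comparable with the hg19 intervals. These 6 were picked after their motif matches were seen. The MALAT1 and PLAU intervals held JUND and PANC1 ETS1 peaks and no other ETS factor, as did those at ACTG1 and GAPDH. The other 4 held at least 3 of the 5 other lists, as did further named members. The 6 are examples and no basis for a contrast. Capitals mark the core GGAA on either strand and, where present, the longer ETS site CCGGAAGT, which contains that core.

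MALAT1 (chr11:65497488-65497737, + strand): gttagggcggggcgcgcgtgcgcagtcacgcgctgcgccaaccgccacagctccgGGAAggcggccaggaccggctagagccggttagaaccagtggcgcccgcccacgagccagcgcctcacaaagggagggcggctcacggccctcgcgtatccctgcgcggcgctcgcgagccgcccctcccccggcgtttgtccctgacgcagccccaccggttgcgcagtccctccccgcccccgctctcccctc
PLAU (chr10:73910360-73910609, + strand): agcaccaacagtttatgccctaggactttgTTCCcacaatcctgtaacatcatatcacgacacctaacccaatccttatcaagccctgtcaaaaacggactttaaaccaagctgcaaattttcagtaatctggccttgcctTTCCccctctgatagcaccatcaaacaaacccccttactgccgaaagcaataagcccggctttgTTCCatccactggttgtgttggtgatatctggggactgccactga
IER2 (chr19:13150161-13150410, + strand): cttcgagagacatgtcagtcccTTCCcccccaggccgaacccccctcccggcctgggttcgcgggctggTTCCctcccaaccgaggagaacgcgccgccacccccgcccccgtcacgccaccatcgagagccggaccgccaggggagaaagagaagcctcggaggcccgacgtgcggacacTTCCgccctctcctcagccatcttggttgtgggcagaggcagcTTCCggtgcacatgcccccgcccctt
SBNO2 (chr19:1174269-1174518, - strand): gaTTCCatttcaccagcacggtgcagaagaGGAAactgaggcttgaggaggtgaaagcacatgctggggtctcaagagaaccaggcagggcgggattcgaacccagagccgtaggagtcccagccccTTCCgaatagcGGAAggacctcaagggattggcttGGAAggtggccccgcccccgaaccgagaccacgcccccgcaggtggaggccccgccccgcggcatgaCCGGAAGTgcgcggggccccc
ARHGDIA (chr17:81871338-81871587, - strand): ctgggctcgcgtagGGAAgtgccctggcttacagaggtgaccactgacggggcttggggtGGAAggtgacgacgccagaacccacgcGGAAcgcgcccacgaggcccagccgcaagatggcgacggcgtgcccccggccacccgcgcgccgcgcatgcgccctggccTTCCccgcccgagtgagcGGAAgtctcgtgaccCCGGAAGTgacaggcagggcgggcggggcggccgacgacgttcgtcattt
WDR74 (chr11:62839591-62839840, - strand): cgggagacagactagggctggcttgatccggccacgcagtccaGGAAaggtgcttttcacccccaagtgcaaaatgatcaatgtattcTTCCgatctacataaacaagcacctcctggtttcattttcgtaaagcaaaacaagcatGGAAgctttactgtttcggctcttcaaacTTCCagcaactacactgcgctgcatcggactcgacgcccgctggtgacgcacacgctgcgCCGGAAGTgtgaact

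CCGGAAGT was searched on both strands. It stood in the windows of ARHGDIA, of SBNO2, which encodes a transcriptional co-regulator, and of WDR74, which encodes a ribosome assembly factor. The windows of MALAT1, PLAU and IER2 did not hold these letters. Among named genes not printed, RPLP2 and TRIM41 held them. ZBTB7B, ZFP36, H2BC21, PFN1, CAMTA2, DNAAF2, RPS16 and ATF4, whose intervals held 3 or more of the 5 other lists, did not. Of the 34 genes named at members, 25 had a promoter in the table, and 5 of the 25 held CCGGAAGT, against 3.64% of all 27305 promoter windows of the same length. TGANTCA stood in 0 of the 25 and in 6.60% of all windows. GGAA stood in all 25 and in 92.8% of all windows. The named genes were partly picked for holding several lists, so these counts are a description, and a match of letters is not a bound site.

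The widest member spanned 13707 bp at NEAT1 (chr11:65184646-65198352), the gene of the long noncoding RNA that builds nuclear paraspeckles. The next spanned 12073 bp at RPL23A (chr17:27044032-27056104), a ribosomal protein gene. The third spanned 11311 bp at MALAT1 (chr11:65264430-65275740), another long nuclear RNA gene, and the fourth 9760 bp at PLAU (chr10:75668381-75678140). Positions 5 and 7 both lay at KRT7, a keratin of simple epithelia, with 9381 bp (chr12:52624460-52633840) and 8110 bp (chr12:52636380-52644489) and 2539 bp between them. Members of 6029 to 8369 bp followed at ITGA3 (an integrin subunit), MIDN, MIR21 (a microRNA gene), ZFP36L1 and SBNO2. Others in that range lay at the actin gene ACTG1, the immediate-early gene IER2, the ERK-responsive gene PHLDA1, the ferritin gene FTL, GABARAP, BRD2, GAPDH and TGIF1. The member of rank 18 (chr22:30648255-30654408) is given no name. Below these 20 the widths fell quickly. The median over all 387 was 2996 bp with quartiles of 2681 and 3597 bp, 71 reached 4000 bp, 35 reached 5000 bp and 3 reached 10000 bp.

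**Figure D1:**
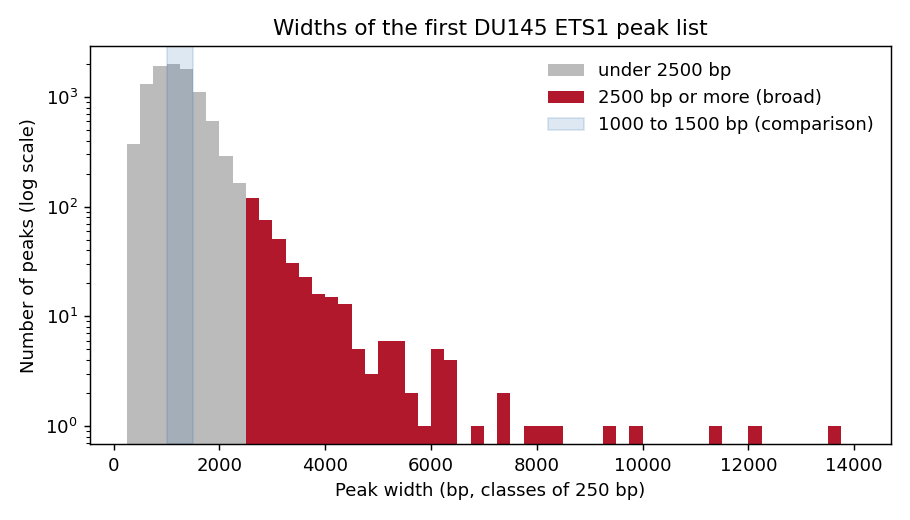
Number of peaks (log scale) in classes of 250 bp of peak width (bp) for the first DU145 ETS1 list, with the 387 broad peaks in red, narrower peaks in grey and the comparison range of 1000 to 1500 bp shaded. The broad peaks are the upper tail of one distribution, from 2501 to 13707 bp, with no gap at the threshold.

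The threshold cuts a continuous range. The 3 members just inside it had widths of 2501, 2501 and 2502 bp, and the 3 peaks just outside had 2498, 2496 and 2492 bp. Of the 3 inside, 1 held a PANC1 ETS1 peak, 1 a JUND peak and 1 none of the 5 lists. Of the 3 outside, 1 held none, 1 held GABPA, ELF1 and JUND, and 1 held GABPA.

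Members were spread over 23 chromosomes. Chromosome 19 had 41 (10.6%, against 7.36% of comparison peaks) and chromosome 17 had 39 (10.1% against 6.76%). Chromosome 1 had 32 (8.27% against 9.79%), chromosome 6 had 31 (8.01% against 5.08%) and chromosome X had 1 (0.258% against 0.759%). Chromosomes 2 and 3 had 13 and 8, or 3.36% and 2.07%, against 6.31% and 5.21% of comparison peaks. These shares were not tested. Some members were neighbours: 10 pairs lay under 5000 bp apart and 27 pairs under 20000 bp apart, with a smallest gap of 773 bp on chromosome 1 (chr1:153930075-153933592 and chr1:153934366-153937146).

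The second ETS1 list of DU145 consists of windows of 271 to 501 bp, and a broad peak nearly always held a single one. Of the 387 members, 360 (93.02%) held 1 window, 26 (6.72%) held 2, none held 3, and 1 (chr9:130206595-130209570, with a JUND peak) held 0. In the comparison set 3578 (93.7%) held 1 window, 241 (6.31%) held 0 and none held 2. A member was therefore not a run of many windows of this list. Since most peaks of both sets held 1 window, the count does not tell how many sites ETS1 bound in a member. The windows covered a median of 16.8% of a member and 39.1% of a comparison peak. Where there was 1 window, its centre lay a median of 557 bp from the middle of the member (quartiles 287 and 807 bp), and 94 bp from the middle of a comparison peak (quartiles 43 and 165 bp). Both lists are deposited under the same sample, so these counts are given with no test.

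The members with 2 windows had a median width of 3624 bp, against 2980 bp for those with 1, and the 2 centres lay 1233 to 5669 bp apart (median 2261 bp). The 5 widest of them were ITGA3, SBNO2, the member of rank 18, and the members at chr11:67777152-67782762 and chr1:154942822-154948199. At ITGA3 the centres stood 651 and 6320 bp from the start of the interval. At SBNO2 they stood at 1346 and 5376 bp. Of the 26 members, 8 held GABPA, 6 JUND, 2 ELK4, 1 ELF1 and 1 PANC1 ETS1. Among all 387 members, 26.6% held GABPA, 25.3% JUND, 8.53% ELK4, 2.07% ELF1 and 17.6% PANC1 ETS1. The 26 were not tested against the rest.

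**Figure D2:**
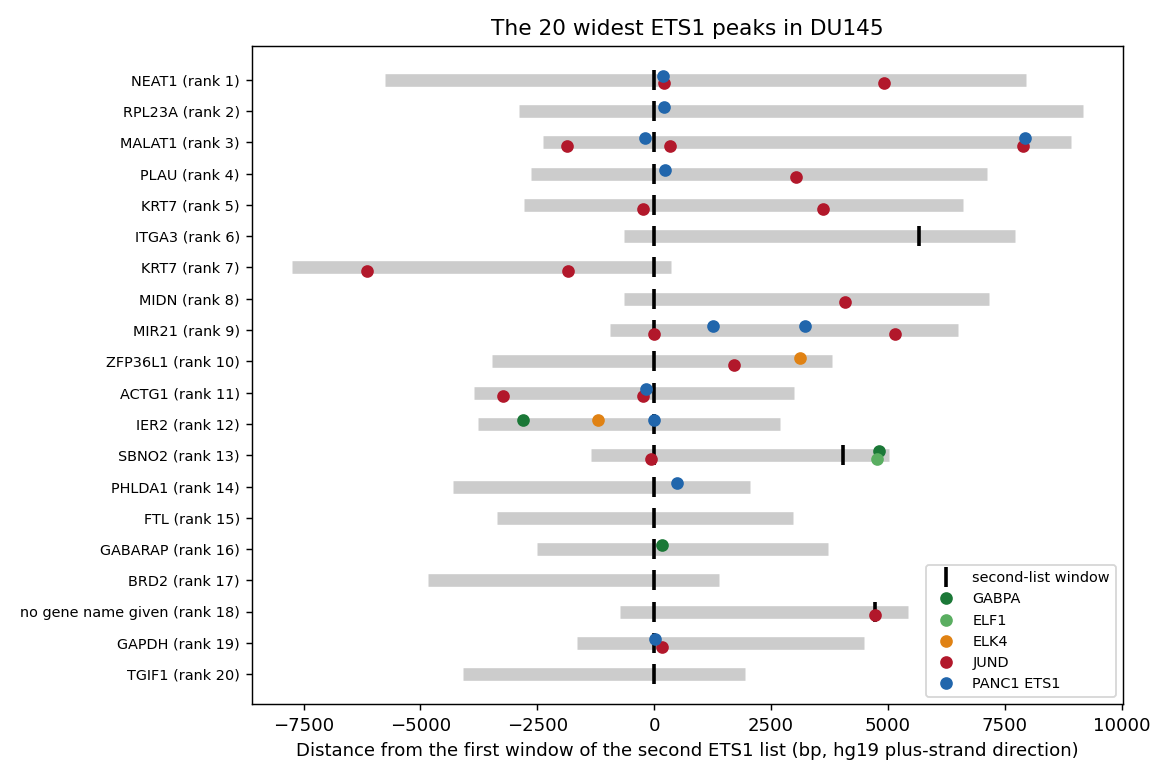
The 20 widest ETS1 peaks as grey bars on an axis of distance (bp) from the first window of the second ETS1 list, with black ticks for those windows and coloured points for the centres of peaks of the 5 other lists; gene names come from general knowledge of hg19. 3 of the 20 bars hold 2 ticks and the others 1, 12 of the 20 hold JUND (red), 9 hold PANC1 ETS1 (blue), and 3 hold GABPA (dark green).

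JUND, the AP-1 factor, was present at broad peaks far more often than at comparison peaks. It met 98 of 387 members (25.3%, 95% Clopper-Pearson interval 21.1 to 29.96%) and 101 of 3819 comparison peaks (2.64%, 2.16 to 3.20%), where 4.44% of all ETS1 peaks met it. The odds ratio was 12.5 (9.10 to 17.1; two-sided Fisher's exact test with adjusted p = 1.75e-51 over 5 lists). Since the chance of an overlap grows with width, peak centres were also counted per base pair covered. JUND centres numbered 82.0 per Mb in members and 20.7 per Mb in comparison peaks, a ratio of 3.96 (2.99 to 5.25), given as a description. The base pairs covered follow from the width that chose the sets, so a list with about 1 site per ETS1 peak has a lower density in members by construction: the windows of the second ETS1 list numbered 0.310 per kb in members and 0.756 per kb in comparison peaks, a ratio of 0.410. The JUND ratio lay above 1. The JUND list itself holds regions of 419 to 3796 bp, wider than the windows of the other lists. Of its 453 peaks at the first ETS1 list, 24.1% lay in members.

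ETS1 of PANC1 was likewise frequent at the broad DU145 peaks. It met 68 members (17.6%, 13.9 to 21.7%) and 59 comparison peaks (1.54%, 1.18 to 1.99%), where 3.02% of all ETS1 peaks met it. Its odds ratio reached 13.6 (9.25 to 19.95; Fisher's exact test, adjusted p = 2.29e-38). Per Mb covered the values were 55.6 and 12.3, a ratio of 4.54 (3.18 to 6.52), a description for the same reason. Of its 309 peaks at the first ETS1 list, 24.3% lay in members. Among peaks outside the first of 5 groups of lines of the ETS1 list, the odds ratio was 2.30 and its interval, 0.699 to 5.92, holds 1.

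ELK4 was also more frequent at the broad peaks. It met 33 members (8.53%, 5.94 to 11.8%) and 100 comparison peaks (2.62%, 2.13 to 3.18%), where 2.77% of all ETS1 peaks met it. This gave a value of 3.465 for the odds ratio (2.23 to 5.27; Fisher's exact test, adjusted p = 9.52e-08). Its centres numbered 25.6 and 21.1 per Mb, a ratio of 1.21. The interval, 0.795 to 1.80, holds 1 and lies above the 0.410 of the windows. That ratio is a description too, because the selected width enters it.

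GABPA, the most frequent of the other ETS factors, showed no such rise. It met 103 members (26.6%, 22.3 to 31.3%) and 1200 comparison peaks (31.4%, 29.9 to 32.9%), where 23.7% of all ETS1 peaks met it. Its odds ratio stood at 0.792 (0.619 to 1.01; Fisher's exact test, adjusted p = 0.0710). Per Mb covered the values were 81.2 and 252.9, a ratio of 0.321, given as a description because the selected width enters it. The interval of that ratio, 0.261 to 0.391, lies below the 0.410 of the windows. ELF1 met 8 members (2.07%, 0.897 to 4.03%) and 100 comparison peaks (2.62%, 2.14 to 3.18%), where 2.36% of all ETS1 peaks met it (odds ratio 0.785, 0.327 to 1.62, Fisher's exact test, adjusted p = 0.615). Its 8 centres gave 6.02 per Mb against 21.1, a ratio of 0.285 whose interval, 0.1196 to 0.583, holds the 0.410 of the windows.

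**Figure D3:**
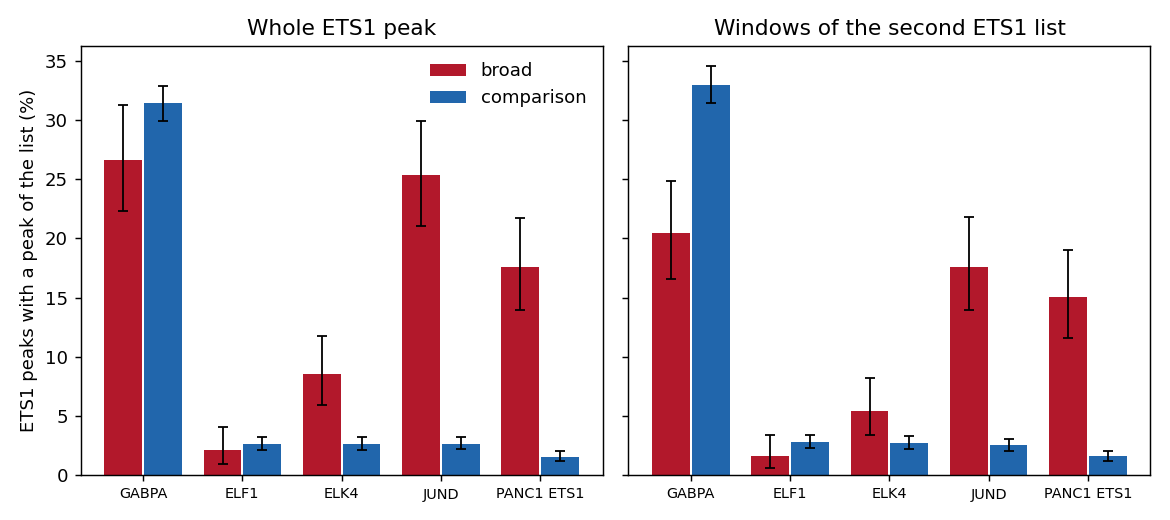
Share of ETS1 peaks (%) that hold a peak of each of the 5 other lists, for 387 broad (red) and 3819 comparison peaks (blue), counted over the whole peak (left) and at the windows of the second ETS1 list inside it (right, 386 and 3578 peaks); error bars are 95% Clopper-Pearson intervals. JUND and PANC1 ETS1 are higher in the broad set in both panels, and GABPA is lower in the right panel.

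The windows of the second ETS1 list give intervals of nearly equal size in both sets, so occupancy was also counted there, a choice made after the data were seen. JUND met the windows of 17.6% of members and 2.49% of comparison peaks (odds ratio 8.37, 5.89 to 11.9). PANC1 ETS1 met them in 15.0% and 1.57% (odds ratio 11.1, 7.42 to 16.6). ELK4 met them in 5.44% and 2.71% (odds ratio 2.06, 1.21 to 3.38, Fisher's exact test, adjusted p = 0.00802). Pooled within 5 groups of lines of the list, the ELK4 odds ratio at windows was 1.52 (Mantel-Haenszel), with an interval from 0.906 to 2.54 that holds 1, and it no longer passed. GABPA met them in 20.5% of members and 33.0% of comparison peaks (odds ratio 0.523, 0.399 to 0.679, Fisher's exact test, adjusted p = 4.42e-07). At ETS1 windows of like size, then, the broad set had more JUND and PANC1 ETS1 and less GABPA. JUND regions reach 3796 bp, so one can meet a window although its centre lies far off. Of the 58 members with PANC1 ETS1 at a window, 54 lay in the first line group. For ELF1 the shares were 1.55% and 2.77%, and the interval of the odds ratio ran from 0.198 to 1.26.

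**Figure D4:**
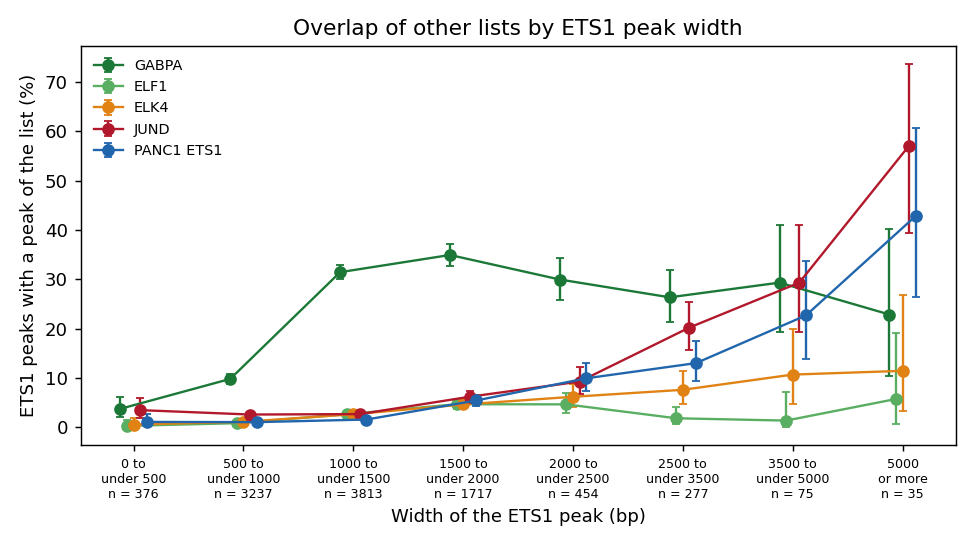
Share of ETS1 peaks (%) that hold a peak of each other list, by width class of the ETS1 peak (bp), with the number of peaks under each class and 95% Clopper-Pearson intervals as error bars. JUND and PANC1 ETS1 climb to 57.1% and 42.9% of the 35 peaks of 5000 bp or more, while GABPA is highest at 34.9% in the class from 1500 to under 2000 bp.

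The shares by width class within the members are a description, since width chose them. JUND met 20.2% of the 277 members under 3500 bp, 29.3% of the 75 from 3500 to under 5000 bp, and 57.1% of the 35 above (39.4 to 73.7%). PANC1 ETS1 met 13.0%, 22.7% and 42.9% in the same order. GABPA met 26.4%, 29.3% and 22.9%, with overlapping intervals. Of the 10 widest members, 8 held JUND, 5 held PANC1 ETS1, 1 held ELK4, and none held GABPA or ELF1. Longer intervals have more room for other peaks. At the windows of the second ETS1 list, which are of nearly equal size, the shares in the same order were 14.5%, 20% and 37.1% for JUND. They were 11.6%, 18.7% and 34.3% for PANC1 ETS1, and 22.1%, 20% and 8.57% (1.80 to 23.1%) for GABPA. The classes were not tested against each other.

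Members stood early in the deposited order of the ETS1 list, and this order moved with occupancy. No label says what that order means. The median line of the members was 1615, against 3924 for comparison peaks, and 217 of the 387 lay in the first of 5 equal groups of lines. In that group PANC1 ETS1 met 63 of 217 members (29.03%) and 18 of 668 comparison peaks (2.69%), an odds ratio of 14.7 (8.32 to 27.2). In the other 4 groups it met 5 of 170 (2.94%) and 41 of 3151 (1.301%), an odds ratio of 2.30 whose interval, 0.699 to 5.92, holds 1. A higher share of PANC1 ETS1 at members was thus detected in the earliest lines and was not detectable in the rest. JUND was higher at members in both parts, with 28.1% against 1.80% in the first group and 21.8% against 2.82% in the rest (odds ratios 21.3, 11.01 to 44.5, and 9.56, 6.09 to 14.8). GABPA was lower at members in both, with 35.0% against 55.2% and 15.9% against 26.4% (odds ratios 0.437, 0.313 to 0.607, and 0.527, 0.333 to 0.807). ELK4 was at 11.5% against 4.19% in the first group (odds ratio 2.97, 1.62 to 5.43). In the rest it was at 4.71% against 2.29%, an odds ratio of 2.11 whose interval, 0.863 to 4.49, holds 1. The difference between the line groups was not tested.

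Almost as many members held none of the 5 other lists as held some. None was found at 182 members (47.0%), 1 list at 128, 2 at 55, 3 at 17, 4 at 4 and all 5 at 1. Among comparison peaks 2410 (63.1%) held none and 9 of 3819 held 3 or more, against 22 of 387 members with 3 or more. Wider intervals have more room for several lists, and these counts were not tested. The widest member with none was ITGA3. FTL, BRD2 and TGIF1 also held none. JUND occurred without GABPA, ELF1 or ELK4 at 66 members (17.1%, 13.4 to 21.2%) and at 84 comparison peaks (2.20%, 1.76 to 2.72%). At least 1 of these 3 ETS factors without JUND was found at 85 members (21.96%) and 1267 comparison peaks (33.2%). JUND and PANC1 ETS1 were both present, at any distance from each other, at 30 members (7.75%) and at 2 comparison peaks (0.0524%). Those 30 were 30.6% of the members with JUND and 44.1% of those with PANC1 ETS1. GABPA was present at 24 of the 98 members with JUND (24.5%), near its 26.6% of all members. It was present at 19 of the 33 with ELK4 (57.6%) and at all 8 with ELF1.

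The member with all 5 lists lay at DNAAF2, a dynein arm assembly factor (chr14:50099689-50102615, 2927 bp), with 1 peak of each. Their centres stood 38 bp (PANC1 ETS1), 166 bp (GABPA), 298 bp (ELF1), 302 bp (JUND) and 506 bp (ELK4) from the centre of its single ETS1 window. Members with 4 lists lay at WDR74, at MCL1 (a survival factor of the BCL2 family, chr1:150550422-150553106), at ATF4 (the transcription factor of the stress response, chr22:39915325-39917847) and at chr16:2202629-2206665. At ATF4 the centres of PANC1 ETS1, ELK4, GABPA and JUND stood 178, 143, 208 and 294 bp from the window. At WDR74 (chr11:62606285-62610185) ELF1, PANC1 ETS1 and JUND stood 14, 11 and 108 bp from it, and GABPA 1958 bp away. Those with 3 lists included the actin gene ACTB, the profilin gene PFN1, the splicing factor gene SRSF2, the histone gene H2BC21 and the ribosomal protein genes RPLP2 and RPS16. Further ones were ZFP36, ZBTB7B, CAMTA2, ARHGDIA, ZNFX1, TRIM41, IER2 and SBNO2, and 3 intervals with no name given (chr19:13949292-13954305, chr11:64036320-64039693 and chr1:11967597-11970444).

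Within members, JUND peaks stood farther from the ETS1 windows than GABPA and PANC1 ETS1 peaks did, a comparison chosen after the data were seen. The centre of a JUND peak lay a median of 404 bp from the nearest window centre (quartiles 124 and 1353 bp, 108 peaks). The medians were 156 bp for GABPA (108 peaks), 194 bp for PANC1 ETS1 (75 peaks), 189 bp for ELK4 (34 peaks) and 82 bp for ELF1 (8 peaks). Of the JUND centres 36.1% (27.1 to 45.9%) lay within 250 bp, against 63.0% (53.1 to 72.1%) for GABPA and 64.0% (52.1 to 74.8%) for PANC1 ETS1. The odds ratios were 0.334 for JUND against GABPA (0.184 to 0.600, Fisher's exact test, adjusted p = 5.11e-04 over 4 comparisons) and 0.320 against PANC1 ETS1 (0.164 to 0.613, exact test, adjusted p = 5.67e-04). With members of 3000 bp or more these became 0.573 and 0.586 and neither passed. Against ELK4 (0.449, 0.189 to 1.05, exact test, adjusted p = 0.0630) and ELF1 (0.343, 0.0505 to 1.87, adjusted p = 0.154) no difference was detected. These tests count peaks and not members: 9 members held 2 JUND peaks and 1 held 3. JUND shared 24 members with GABPA and 30 with PANC1 ETS1, and this pairing was not used, so the p-values describe pooled peaks only. JUND regions are wider, so their centres are placed less exactly, and in comparison peaks JUND also had the lowest share within 250 bp (73.7%, against 93.5% for GABPA and 81.0% for PANC1 ETS1).

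**Figure D5:**
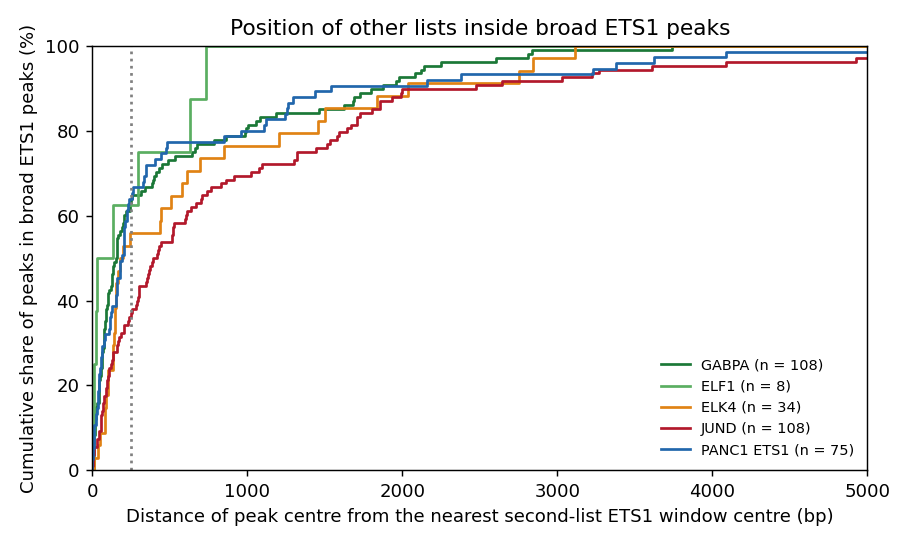
Cumulative share (%) of peaks of each list inside broad ETS1 peaks by the distance (bp) of their centre from the nearest window centre of the second ETS1 list, shown up to 5000 bp, with a dotted line at 250 bp. The JUND curve (red) lies at 36.1% at the line, and those of GABPA and PANC1 ETS1 at 63.0% and 64.0%.

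Single loci show how the lists lie apart, with all distances given between centres. At NEAT1 the ETS1 window, a PANC1 ETS1 peak 180 bp from it and a JUND region 203 bp from it fell together, and a second JUND peak lay 4926 bp away. MALAT1 held 3 JUND peaks, at 346, 1858 and 7887 bp from the window, and 2 PANC1 ETS1 peaks, at 206 and 7924 bp. The distal PANC1 ETS1 peak of MALAT1 lay inside the distal JUND peak, with no window of the second DU145 list near them. At PLAU the PANC1 ETS1 peak lay 240 bp from the window and the JUND peak 3032 bp from it. The pair of KRT7 members held 2 JUND peaks each and no ETS factor of another list. At MIR21 a JUND peak lay 1 bp from the window, another 5160 bp away, and PANC1 ETS1 peaks at 1264 and 3228 bp. At IER2 the PANC1 ETS1 peak lay 2 bp from the window, ELK4 1202 bp and GABPA 2810 bp. The GABPA and ELF1 peaks at SBNO2 stood 788 and 736 bp from the nearest of its 2 windows, and JUND stood 61 bp from the other. ZFP36L1 held the widest interval with ELK4, 3111 bp from the window, and a JUND peak at 1710 bp.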

How the data were processed

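ChIP-seq peak lists of 6 samples were used, with 1 sample per factor and line. Each of the 7 deposited files holds the chromosome, start and end of each peak on hg19, per the labels, and no other unit. Bowtie2 2.0.6 appears in the submitters' processing notes with no stated role. Not given in the sources used here: peak caller, threshold, use of the inputs. Overlaps were computed in Python 3.11.15, NumPy 2.4.6, SciPy 1.17.1 and statsmodels 0.14.6, and plots were drawn with Matplotlib 3.10.9. An overlap of 1 bp or more counted as occupancy. Occupancy was compared with Fisher's exact test and density with a conditional exact binomial test on centres given the base pairs covered, both two-sided, with Benjamini-Hochberg adjustment over 5 lists and a threshold of 0.05. Intervals are 95% intervals and cover counting error only; peaks of 1 list are not independent replicates. On simulated independent counts the intervals held a true odds ratio of 6 in 286 of 300 draws. This checks the computation only, since neighbouring peaks and the effect of width were not simulated.

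Regions named were the 20 widest members, the 5 widest with 2 windows, every member with 3 or more other lists, the widest with each list and with none, and 3 on each side of the threshold. That rule gave gene names only from a table of the build of the files; since none was used, names were added from general knowledge of hg19 after the data were seen, each on the chromosome that RefSeq gives its symbol, and the planned gene lists were not counted. Motif densities in peaks were not computed, as no hg19 genome was used. The occupancy at windows, the line groups, the width classes, the distances with their 250 bp limit and the 6 promoters were chosen after seeing the data. The members and lists were chosen with earlier results of these data known.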

Additional observations from a re-analysis of the deposited data

How the results depend on the processing

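Odds ratios of occupancy and ratios of density were recomputed under 15 and 10 alternatives, of which 3 of the former were added after seeing the data, as were all 4 alternatives of the distance comparison. The odds ratios of JUND and PANC1 ETS1 kept direction and threshold in all 15, from 5.15 to 18.1 and from 3.72 to 18.4. Their density ratios ran from 2.33 to 5.45 and from 1.75 to 5.48. These alternatives do not include the peaks outside the first of 5 line groups taken alone: there the PANC1 ETS1 odds ratio was 2.30 (0.699 to 5.92). Density ratios carry the selected width and are given as a description.

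The odds ratio of GABPA passed the threshold with comparison peaks of 1500 to 2000 bp (0.674), 1000 bp around each centre (0.417), earlier lines (0.597), peaks with a window (0.734), without chromosome 19 (0.704), at windows (0.523), pooled within 5 line groups (0.424) and both of the last together (0.295). It turned to 1.17, not past the threshold, against all peaks under 2500 bp. That of ELF1 passed with comparison peaks of 1500 to 2000 bp (0.432) and at windows pooled by line group (0.358), and turned, not past it, with members of 2000 bp or more (1.33) and with peaks under 5 kb apart merged (1.10). That of ELK4 was lost with 1000 bp around each centre (1.71) and at windows pooled by line group (1.52). Single window centres lay a median of 557 bp from the middle of members and 94 bp from that of comparison peaks. The 1000 bp around a centre therefore left out the window centre in many members, and values under that setting carry this offset. As a description, the ELF1 density ratio was 0.395 with 1000 bp around each centre, where fewer peaks enter. That of ELK4 was 0.936 with comparison peaks of 1500 to 2000 bp and 0.925 with merged peaks.

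For distances, JUND against GABPA was lost with members of 3000 bp or more (0.573), and against PANC1 ETS1 there (0.586) and within 100 bp (0.577). With members of 2000 bp or more, JUND against ELF1 (0.252) and ELK4 (0.475) passed; within 100 bp ELK4 turned (1.26). Apart from the named constructions the cause was not tested. Depth is unknown, so absence of a peak is no sign of absent binding.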
